A study of Homo sapiens with 24 samples.

Results

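CYP4F2, CYP4F3, CYP4F11, CYP4F12, CYP4F22, CYP2S1, CYP4V2 and POR, 8 of the 60617 genes in the count table, were examined in 686Tu (MDA686TU) cells, a line of squamous cell carcinoma of the head and neck. The genes were chosen by symbol from a list drawn up with the counts of all 4 groups known, and each symbol matched a single Ensembl gene. The levels and fold changes of these genes are therefore given as a description. The study asked whether the plant polyphenols EGCG, from green tea, and resveratrol, from grapes, prevent oral cancer in mice better together than alone. Its sequencing of these cells was done to find genes and pathways changed by the agents, alone or together. Some transcripts and proteins were also measured there by qPCR and Western blotting. Messenger RNA was sequenced from 4 groups of 6 libraries, all of this line and all collected at 24 h. They were the control with neither agent, EGCG at 40 µM, resveratrol at 15 µM, and the combination of EGCG at 40 µM with resveratrol at 15 µM. EGCG was given from a solution in water, and resveratrol from a DMSO stock. Whether the control cells received DMSO is not given in the sources used here, so an effect of resveratrol and of its solvent cannot be told apart. The labels number 6 replicates in each group without saying whether they were separate cultures, so the spread given here may be technical.

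Cytochrome P450 enzymes carry a heme group and insert an oxygen atom into lipids, vitamins, hormones and drugs. Most of those known for drug metabolism work in the liver, whereas the enzymes of the CYP4 family place a hydroxyl group at or near the far end of a fatty acid chain, a step called omega-hydroxylation. CYP4F2 and CYP4F3 act on arachidonic acid and leukotriene B4, and CYP4F2 also on the side chain of vitamin K. CYP4F11 acts on long fatty acids, vitamin K and several drugs, and CYP4F12 on arachidonic acid and some antihistamines. CYP4F22 hydroxylates the very long fatty acids that skin needs to build acylceramides for its water barrier. CYP4V2 is a fatty acid hydroxylase whose loss causes a crystalline dystrophy of the retina, and CYP2S1 is an epithelial P450 of airways and skin. POR, the NADPH-cytochrome P450 reductase, hands electrons to most P450 enzymes of the endoplasmic reticulum and carries no heme itself.

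Library totals lay between 7034872 and 11735574 counts, and 15476 genes passed the filter on low counts and were tested. In replicates 1 to 3 of every group, mitochondrial transcripts took 0.249% to 0.326% of the counts, against 0.448% to 0.775% in the other replicates, 4 to 6. No label or method names a batch for this split, and values within each set of replicates are given beside the results they touch. All 8 markers of squamous epithelium that were looked up were abundant, with a summed level of 155643 to 165202 normalized counts per library in the control, 148925 to 168570 with EGCG, 128016 to 136001 with resveratrol and 126063 to 138122 with the combination. By the limits of a call given below, 5 of the 8 were lower and 1 higher with resveratrol, 75% beside 56.9% of all tested genes. With the combination 4 were lower and 2 higher, 75% beside 59.8% of all tested genes. The 10 hepatocyte markers had mean levels under 10 normalized counts, 3 of them were at 0 in all libraries, and their sum reached at most 8.16 per library. All 4 leukocyte markers were under 10 as well. Of the 5 fibroblast markers 3 were under 10, and nearly all of their sum came from COL1A1, a collagen chain. The sum was 1116 to 1349 in the control, 898 to 1114 with EGCG, 1312 to 1558 with resveratrol and 1525 to 1753 with the combination. The part of the squamous and fibroblast markers in the values of the members was not tested. Of the 3 endothelial markers 2 were under 10, with a summed level of 5.64 to 20.0.

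The CYP4F genes lie side by side on the short arm of chromosome 19 (GRCh38), and several are so alike that a short read can fit more than a single gene. CYP4F22 (ENSG00000171954, chr19:15508525-15552317), CYP4F3 (ENSG00000186529, chr19:15640897-15662825) and CYP4F12 (ENSG00000186204, chr19:15673018-15697174) are on the plus strand. CYP4F2 (ENSG00000186115, chr19:15878023-15898077) and CYP4F11 (ENSG00000171903, chr19:15912367-15934867) are on the minus strand. CYP2S1 (ENSG00000167600) is on the long arm of the same chromosome at chr19:41193210-41207539, plus strand. CYP4V2 (ENSG00000145476) is at chr4:186191567-186213463, plus strand, where a further annotated gene overlaps its end on the same strand. POR (ENSG00000127948) is at chr7:75899200-75986855, plus strand, and its end touches TMEM120A on the other strand.

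The reference transcripts show where counts of these genes can be exchanged. The coding sequences of CYP4F2 and CYP4F3 were 91.0% identical, those of CYP4F2 and CYP4F11 88.9%, and those of CYP4F3 and CYP4F11 86.1%. CYP4F22 shared 67.3% to 69.8% with the other CYP4F members, and CYP2S1 and CYP4V2 shared 52.3% to 55.2% with any of them. The longest coding stretch that CYP4F3 and CYP4F11 have in common is 64 bases, from coding base 1104 to 1167 of either gene, across the junction of exons 9 and 10 of CYP4F3 and of exons 8 and 9 of CYP4F11. It is longer than a single read of 50 bases. Reads were sequenced in pairs, and a mate outside the stretch can still mark the gene. The stretch is printed here for all 5 genes with the bases that differ from CYP4F3 in capitals.
CYP4F3: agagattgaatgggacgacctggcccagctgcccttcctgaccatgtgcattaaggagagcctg
CYP4F11: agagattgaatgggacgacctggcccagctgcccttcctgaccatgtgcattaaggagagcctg
CYP4F2: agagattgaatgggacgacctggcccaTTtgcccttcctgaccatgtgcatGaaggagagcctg
CYP4F12: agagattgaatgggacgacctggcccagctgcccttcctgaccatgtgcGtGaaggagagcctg
CYP4F22: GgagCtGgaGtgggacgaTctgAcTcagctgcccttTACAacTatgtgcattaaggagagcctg
CYP4F2 differed from CYP4F3 at 3 of these 64 bases, CYP4F12 at 2 and CYP4F22 at 12, while CYP4F11 differed at none. CYP4F2 and CYP4F3 share a longer run, the last 115 coding bases, in exon 13 of both genes. It lies at chr19:15659271-15659385 on the plus strand for CYP4F3 and at chr19:15878771-15878885 on the minus strand for CYP4F2. A read from inside it carries no mark of its gene, though its mate may.
CYP4F2 and CYP4F3: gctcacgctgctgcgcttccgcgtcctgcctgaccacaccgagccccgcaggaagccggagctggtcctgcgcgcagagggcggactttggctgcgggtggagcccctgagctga

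Over whole reference transcripts, 70.6% of the 50-base windows of CYP4F2 had a counterpart with at most 2 mismatches in another CYP4F gene, and 66.9% had it in CYP4F3. The same held for 31.6% of the windows of CYP4F3, with 30% in CYP4F2 and 6.12% in CYP4F11. CYP4F11 was better separated, with 13.6% of its windows shared at this limit and 0.899% shared without a mismatch. CYP4F12 shared 30.3%, mostly with genes whose symbols end in P (24.7%). CYP4F22, CYP2S1 and POR shared no window with any CYP4F gene, and CYP4V2 shared 0.738%. A window stands for a single read, so these shares do not take in what its mate could tell. For the counting step, program, annotation release, strand setting and treatment of reads that fit several genes are not given in the sources used here. The split of counts between CYP4F2, CYP4F3, CYP4F11 and CYP4F12 is therefore uncertain.

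**Figure D1:**
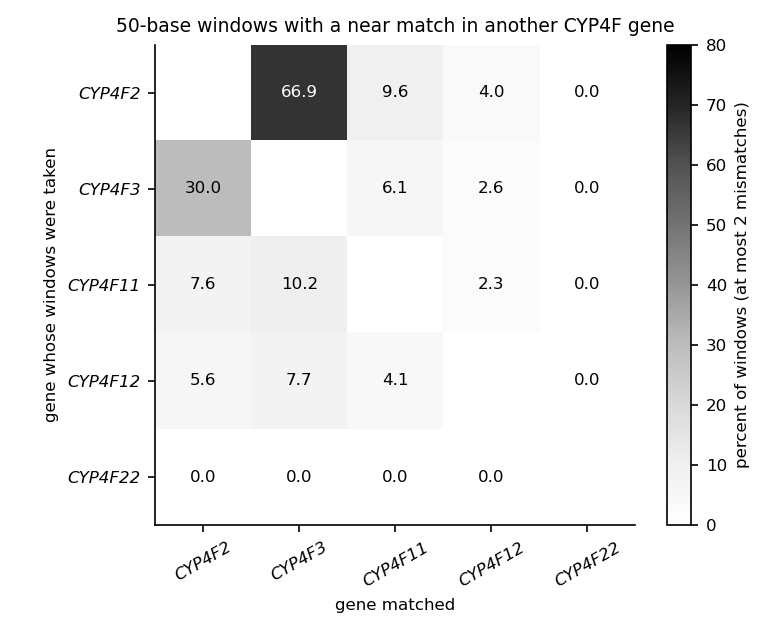
Share of the 50-base windows of each gene's reference transcript (rows) that match a transcript of another CYP4F gene (columns) with at most 2 mismatches, in percent. CYP4F2 shares 66.9% of its windows with CYP4F3, CYP4F11 shares 10.2% with CYP4F3, and CYP4F22 shares none.

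Without treatment, POR and CYP2S1 were the only members expressed above 1 FPKM (fragments scaled by gene length and by depth, the scale on which levels of different genes can be set side by side). POR had a mean of 11.1 FPKM in the control, with libraries from 10.7 to 12.1, and CYP2S1 had 9.05, with libraries from 7.91 to 10.2. CYP4F11 followed at 0.528 FPKM, with libraries from 0.406 to 0.675, and the libraries of these 3 genes did not overlap. The other 5 members were lower still, from CYP4F22 at 0.143 through CYP4V2 at 0.10, CYP4F3 at 0.0663 and CYP4F2 at 0.0373 to CYP4F12 at 0.00659, and each overlapped its neighbour in this order. With resveratrol CYP4F11 reached 3.09 FPKM and CYP4F3 0.302 FPKM, while CYP4F22 stood at 0.0693. The third place of CYP4F11, between CYP2S1 and the remaining members, was thus kept in the resveratrol group.

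Of the members, CYP4F11 differed most between groups. In the control its normalized counts ran from 14.3 to 23.7 with a median of 18.9 (mean 18.6 ± 3.72, SD, n = 6). With EGCG they ran from 15.5 to 29.1 with a median of 20.1 (mean 21.3 ± 5.61, SD, n = 6), overlapping the control. With resveratrol they ran from 95.9 to 114 with a median of 111 (mean 109 ± 7.14, SD, n = 6). All 6 resveratrol libraries, and all 6 of the combination, were above every library without resveratrol. The combination ranged from 98.9 to 137 with a median of 109.6 (mean 116 ± 16.1, SD, n = 6), overlapping the resveratrol group. The ratio of the group means to control was 5.85 with resveratrol, 6.27 with the combination and 1.15 with EGCG. Counts are shares of the RNA of a whole library, so more RNA of a gene per cell and more cells expressing it cannot be told apart. In edgeR's fit the log2 fold change was 2.54 (SE 0.13) with resveratrol and 2.65 (SE 0.13) with the combination, where the median over all tested genes was 0.0037 and -0.0015. Within replicates 1 to 3 the resveratrol value was 2.67 and within replicates 4 to 6 it was 2.41.

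CYP4F3, whose product inactivates leukotriene B4 in blood cells and hydroxylates arachidonic acid elsewhere, had the same split of groups at much lower counts. It held 0.922 to 6.18 normalized counts in the control, with a median of 2.48, and 0 to 8.56 with EGCG, with a median of 2.78. With resveratrol it held 12.4 to 18.8, with a median of 14.1, and with the combination 9.49 to 16.7, with a median of 14.9. The libraries with resveratrol, alone or in the combination, did not overlap those of the control or of EGCG. Group means were 3.19 ± 2.09 for the control and 3.91 ± 3.15 for EGCG, against 14.5 ± 2.32 for resveratrol and 13.7 ± 3.23 for the combination (SD, n = 6 each). Fitted log2 fold changes were 2.20 (SE 0.34) with resveratrol and 2.12 (SE 0.35) with the combination. Within replicates 1 to 3 they were 2.56 and 2.34, and within replicates 4 to 6 they were 1.87 and 1.93. The gene passed the filter on low counts through its resveratrol libraries, since it was not tested in a fit of the control and EGCG libraries alone. All 6 control libraries together held 19 reads of CYP4F3, and those with resveratrol held 94.

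The share of CYP4F3 in the reads of CYP4F3 and CYP4F11 together bears on the exchange of reads between the paralogs. It was 14.3% of 133 reads in the control (exact Clopper-Pearson 95% interval 8.83% to 21.4%, for counting error only). It was 15.0% with EGCG (9.77% to 21.7%), 11.9% with resveratrol (9.74% to 14.4%) and 10.6% with the combination (8.49% to 13.0%). The intervals of the 4 groups overlap, which is no test of a difference, and a change of this share was not tested. In single libraries the share ran from 5% to 26.3% in the control and from 0% to 30.4% with EGCG. It ran from 9.85% to 14.7% with resveratrol and from 8.11% to 14.2% with the combination. Whether reads of CYP4F11 were counted as CYP4F3 was not tested.

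CYP4F2, the main vitamin K hydroxylase of liver, was close to the limit of detection. Its raw counts were 0 to 2 per library in the control, 0 or 1 with EGCG, 0 to 5 with resveratrol and 1 to 3 with the combination. The groups of 6 libraries summed to 6, 3, 16 and 12 reads, and every treated group overlapped the control. CYP4F12 had 2 reads in the control and 1 in each other group, all in a single library per group. CYP4F22 held 20 reads in the control and 18 with EGCG, against 10 with resveratrol and 8 with the combination, with normalized counts of 1.84 to 6.12 in the control and 0 to 4.13 with resveratrol. These 3 genes did not pass the filter on low counts. Fitted with every gene that had at least 1 count, CYP4F2 had a log2 fold change of 1.25 and CYP4F22 of -1.0 with resveratrol, and neither passed the limits of a call.

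**Figure D2:**
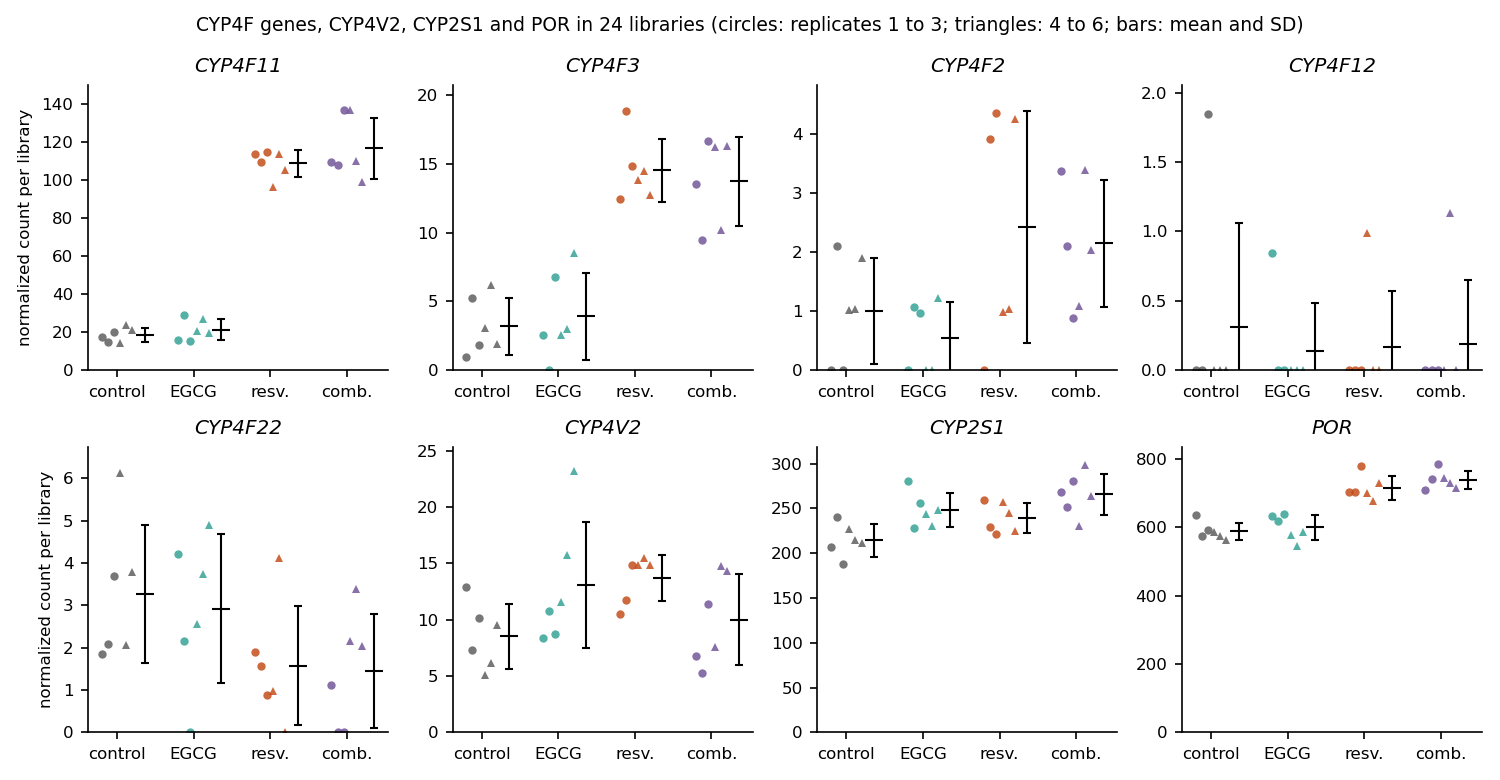
Normalized counts of the 8 genes (vertical axes, which start at 0 and differ between panels) in each library of the control, EGCG, resveratrol (resv.) and combination (comb.) groups; circles are replicates 1 to 3, triangles replicates 4 to 6, and bars the mean and SD of 6 libraries. CYP4F11 and CYP4F3 form a lower pair of groups without resveratrol and a higher pair with it, while CYP2S1 and CYP4V2 overlap in all groups.

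Over the whole family the picture was set by CYP4F11. The summed normalized counts of the 5 CYP4F members were 26.3 ± 4.37 in the control and 28.8 ± 5.16 with EGCG. They were 127 ± 8.50 with resveratrol and 134 ± 16.8 with the combination (SD, n = 6 each). Summing all 24 CYP4F genes of the table gave 51.8 ± 8.65, 51.9 ± 3.96, 152 ± 16.3 and 160 ± 24.7 in the same order. This sum does not depend on how counted reads were split among the genes. It would still miss reads that were dropped for fitting several genes. The 18 genes among them with a symbol that ends in P had summed group means of 23.1 to 25.6. Of these, 7 had no count in any library, and 1, CYP4F26P, is annotated as a long noncoding RNA. CYP4F26P had a mean of 11.4 in the control and shared no window with any member, so the wider sum also holds counts not exchangeable with theirs. Without CYP4F11 the family sum was 33.2 ± 5.85 in the control and 43.4 ± 10.5 with resveratrol.

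The genes that followed CYP4F11 most closely were sought over all 24 libraries as those with the smallest root-mean-square difference of log2 CPM (counts scaled to library size) after each gene's mean was removed. They were AKR1C2 at 0.262, AKR1C1 at 0.287 and LAMP3 at 0.331, against a spread of 1.23 for CYP4F11 itself. The differences between groups stay in this measure and in the spread, so the search favours genes with a like shift between groups. Likeness within groups was not tested. AKR1C1 and AKR1C2 encode near-identical aldo-keto reductases that reduce steroids and lipid aldehydes, and reads can also be exchanged between them. LAMP3 encodes a lysosomal membrane protein. The genes most like CYP4F3 were MAB21L3 at 0.446, TMEM125 at 0.489 and NPTXR at 0.489, against a spread of 0.977. For CYP4V2 the closest was HLA-K at 0.341 against a spread of 0.451, so no gene followed it closely. ANKMY1 came next at 0.359 and FUT4 at 0.361. For POR they were CORO1B, PHGDH and TOB1 at 0.0565 to 0.0627 against a spread of 0.160, and for CYP2S1 EPOP, MIDEAS and KCTD11 at 0.102 to 0.105 against a spread of 0.153.

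The sequence before the start of transcription was compared because CYP4F11 and CYP4F3 had the same split of groups. Whether reads of CYP4F11 counted as CYP4F3 had a part in this likeness was not tested. RefSeq promoters (GRCh38.p14) were at hand for 6 of the 8 genes, and CYP4F12 and POR were not matched. The 250 bases before each start are printed 5′ to 3′ on the strand of the gene. Capitals mark matches, on either strand, to TGACNNNGC, the core of the antioxidant response element bound by NRF2, to TGANTCA, the AP-1 site bound by FOS and JUN, or to GCGTG, the core bound by the aryl hydrocarbon receptor. CYP4F11 has 2 listed starts, the first with its window at chr19:15934868-15935117 and the second, inside the annotated gene, at chr19:15934530-15934779, both on the minus strand. The windows of CYP4F3 (chr19:15641062-15641311, plus strand, inside the annotated gene) and CYP4F2 (chr19:15898075-15898324, minus strand) are shown beside them as those of its closest paralogs.
CYP4F11 first start: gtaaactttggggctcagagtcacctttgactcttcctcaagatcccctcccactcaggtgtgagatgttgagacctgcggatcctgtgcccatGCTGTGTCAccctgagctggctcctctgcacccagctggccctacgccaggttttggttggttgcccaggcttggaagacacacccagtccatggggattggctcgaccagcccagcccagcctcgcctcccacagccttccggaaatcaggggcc
CYP4F11 second start: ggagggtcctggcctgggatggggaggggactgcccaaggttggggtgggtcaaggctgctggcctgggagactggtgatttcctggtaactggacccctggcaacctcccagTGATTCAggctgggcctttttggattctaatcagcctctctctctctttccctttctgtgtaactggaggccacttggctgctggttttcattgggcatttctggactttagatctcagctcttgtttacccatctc
CYP4F3: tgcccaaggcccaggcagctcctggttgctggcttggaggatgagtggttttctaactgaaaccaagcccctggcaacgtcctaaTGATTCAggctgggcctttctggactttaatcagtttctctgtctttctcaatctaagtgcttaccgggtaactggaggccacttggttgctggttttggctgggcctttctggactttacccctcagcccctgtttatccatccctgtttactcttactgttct
CYP4F2: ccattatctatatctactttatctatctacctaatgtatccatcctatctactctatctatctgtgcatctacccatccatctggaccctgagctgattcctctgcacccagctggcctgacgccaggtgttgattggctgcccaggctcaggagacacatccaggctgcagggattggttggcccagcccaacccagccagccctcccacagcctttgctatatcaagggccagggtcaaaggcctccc
The second start of CYP4F11 and the start of CYP4F3 were 76.7% identical over their aligned bases, and each held a single TGANTCA match, at position -137 and -165 from the start. The first start of CYP4F11 was 69.4% identical to that of CYP4F2, and held a TGACNNNGC match at position -156 that CYP4F2 lacked. TGANTCA occurs in 6.57% of all 35116 RefSeq promoter windows of this length, TGACNNNGC in 10.9% and GCGTG in 32.2%. CYP4V2 held a TGACNNNGC match at position -105 and CYP4F22 a GCGTG match at position -150. CYP2S1, which is known as a dioxin-inducible P450, held none of these letters in its window. A match of letters is no proof of a bound site.

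POR was the most abundant member and differed little between groups. Its normalized counts were 562 to 637 in the control, with a median of 581, and 546 to 639 with EGCG, with a median of 602. They were 676 to 778 with resveratrol, with a median of 704, and 710.3 to 784 with the combination, with a median of 736. As with CYP4F11, every library with resveratrol, alone or in the combination, lay above every control library. Means were 588 ± 26.0, 600 ± 36.3, 715 ± 34.9 and 737 ± 26.4 in the order control, EGCG, resveratrol, combination (SD, n = 6 each). The ratio to control was 1.22 with resveratrol and 1.25 with the combination. The fitted log2 fold changes were 0.29 (SE 0.042) and 0.33 (SE 0.042). With library size alone as the scaling, the resveratrol and combination values were 0.38 and 0.41. The median over all tested genes was then 0.09 and 0.08.

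CYP2S1, the only P450 among the members at a level near that of POR, had overlapping groups throughout. The control held 187 to 240.5 normalized counts (median 213), EGCG 228 to 281 (median 246), resveratrol 221 to 259 (median 237) and the combination 231 to 298 (median 266). All 6 libraries of each treated group were above the control mean of 214 ± 18.1 (SD, n = 6). The fitted log2 fold change was 0.22 (SE 0.066) with EGCG, 0.16 (SE 0.066) with resveratrol and 0.32 (SE 0.066) with the combination. The combination passed the limits of a call under every setting in which it was tested. The resveratrol value passed them over all libraries but not within replicates 1 to 3 (0.17), within replicates 4 to 6 (0.16), without control replicate 3 (0.13) or without resveratrol replicate 1 (0.14). The EGCG value did not pass, but did so without control replicate 2 (0.25), EGCG replicate 2 (0.24), EGCG replicate 5 (0.24), combination replicate 3 (0.22) or combination replicate 4 (0.22). The combination exceeded resveratrol by 0.15 (SE 0.064), which was called only without combination replicate 4 (0.19).

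CYP4V2 was rare, with 53 to 87 reads per group of 6 libraries, and its levels depended on the set of replicates. The control held 5.10 to 12.9 normalized counts (median 8.42), EGCG 8.41 to 23.2 (median 11.2), resveratrol 10.5 to 15.5 (median 14.8) and the combination 5.27 to 14.7 (median 9.49). All groups overlapped. The fitted log2 fold change with resveratrol was 0.65 (SE 0.26), and fell to 0.55, outside the limits of a call, without control replicate 4. Within replicates 1 to 3 it was 0.28 and within replicates 4 to 6 it was 1.09. With EGCG it was 0.57 (SE 0.27) over all libraries, -0.15 within replicates 1 to 3 and 1.24 within replicates 4 to 6. In replicates 1 to 3 the control mean was 10.1 ± 2.78 and the EGCG mean 9.31 ± 1.28 (SD, n = 3 each). Their counterparts among replicates 4 to 6 were 6.93 ± 2.29 and 16.8 ± 5.91. The mitochondrial share rose between the same sets of replicates, and its part in the values was not tested. With the combination the log2 fold change was 0.22 (SE 0.29).

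**Figure D3:**
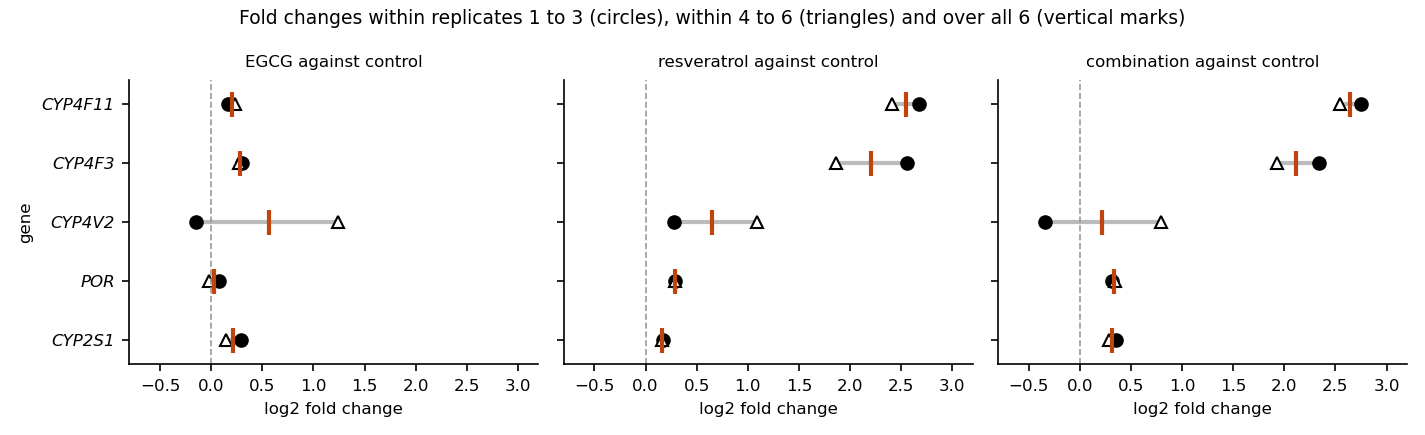
Log2 fold changes against control (horizontal axes) of the 5 tested genes in fits of replicates 1 to 3 alone (circles), of replicates 4 to 6 alone (triangles) and of all 6 replicates (vertical marks). The marks of CYP4F11, POR and CYP2S1 lie close together, whereas those of CYP4V2 run from -0.15 to 1.24 for EGCG.

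Counted together, 5 of the 8 members passed the filter. A call required a Benjamini-Hochberg adjusted p under 0.1 and an unadjusted p under 0.05 in edgeR's quasi-likelihood test over all tested genes. In the comparisons with control, EGCG had 0 of the 5 called by edgeR and by DESeq2, resveratrol 5, and the combination 4, without CYP4V2, all of them higher. Among all tested genes 1.76% were called for EGCG, 56.9% for resveratrol and 59.8% for the combination. Because the members were selected on these groups, nothing is read from their counts. With EGCG 2 members had an unadjusted p under 0.05, CYP2S1 and CYP4V2. Groups that did not overlap the control were found for CYP4F11, CYP4F3 and POR with resveratrol and with the combination and for none with EGCG, against 31% (resveratrol), 31.9% (combination) and 1.58% (EGCG) of all genes.

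What EGCG added to resveratrol was read from the combination against resveratrol alone. Between them 0 of the 5 members were called, 1 had an unadjusted p under 0.05, and DESeq2 called 0 as well, while 7.86% of all genes were called and 3.2% had groups that did not overlap. The 95% confidence intervals of the log2 difference were -0.08 to 0.29 for CYP4F11, -0.58 to 0.41 for CYP4F3, -0.04 to 0.13 for POR, 0.02 to 0.28 for CYP2S1 and -0.96 to 0.09 for CYP4V2. In the test of whether the agents departed from adding up on the log2 scale, 0 members were called by edgeR or DESeq2 and 0.265% of all genes were. The value for CYP4V2 was -1.0 (95% confidence interval -1.76 to -0.24), which did not pass after adjustment and was -0.47 within replicates 1 to 3 and -1.54 within replicates 4 to 6. For CYP4F11 it was -0.10 (-0.52 to 0.33) and for POR 0.01 (-0.11 to 0.13).

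**Figure D4:**
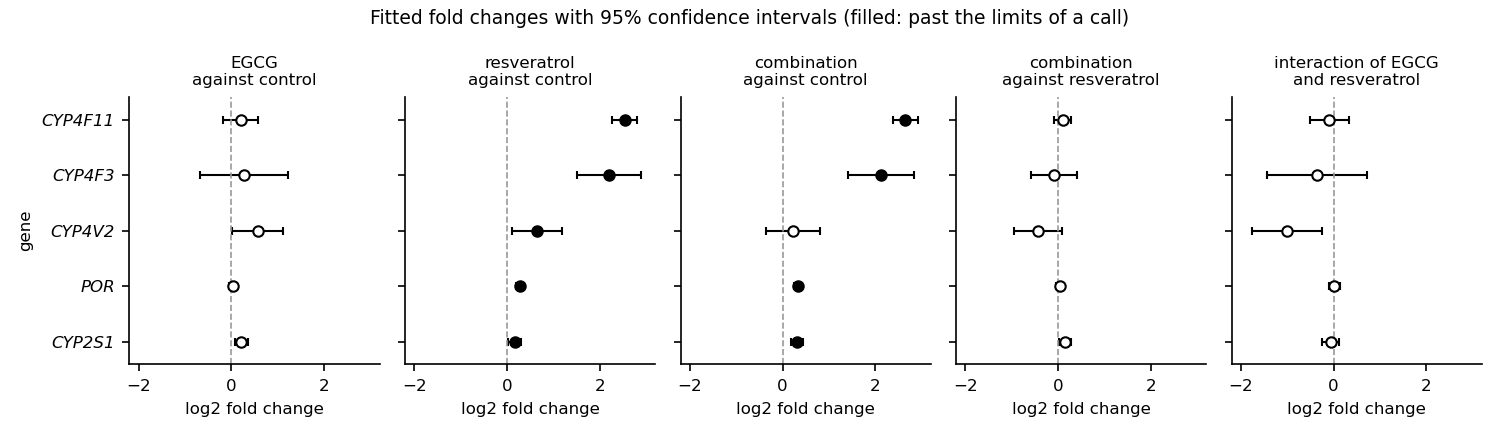
Log2 fold changes (horizontal axes) of the 5 tested genes with 95% confidence intervals in the 5 comparisons; filled points passed the limits of a call. CYP4F11 and CYP4F3 stand above 2 with resveratrol and with the combination, and every interval of CYP4F11, CYP4F3 and POR for the combination against resveratrol includes 0.

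The rest of the P450 family served as the setting for the members. Of 49 other P450 genes, 13 had no count in any library, among them CYP3A4 and CYP7A1 of liver and CYP11B1 of the adrenal cortex, and 15 passed the filter. With resveratrol 5 of the 15 were higher and 5 lower, beside 56.9% of all genes called in either direction, and the median log2 fold change was 0.04. CYP1A1, a target of the aryl hydrocarbon receptor that oxidizes polycyclic hydrocarbons, fell by 4.51 on the log2 scale (SE 0.15, adjusted p = 3.14e-24, edgeR). CYP1B1, its extrahepatic relative, fell by 2.66 (SE 0.06, adjusted p = 8.88e-29). CYP39A1, an oxysterol hydroxylase, rose by 0.98 (SE 0.24, adjusted p = 0.000837). CYP24A1, which breaks down vitamin D and was the second most abundant of those called, fell by 0.15 (SE 0.06, adjusted p = 0.0337). With EGCG 3 of the 15, CYP1A1, CYP1B1 and CYP24A1, were lower and 0 higher, beside 1.76% of all genes called.

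**Figure D5:**
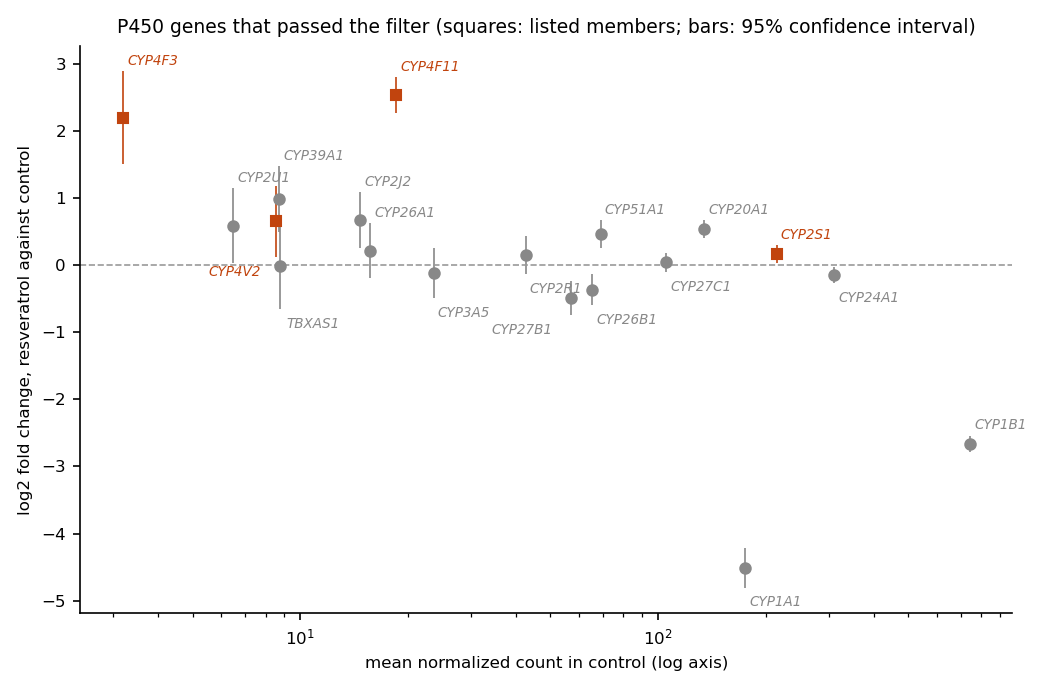
Mean normalized count in the control (horizontal log axis) and log2 fold change with resveratrol (vertical axis, with 95% confidence intervals) of the P450 genes that passed the filter; squares are members of the examined set and circles the 15 other P450 genes. The members were chosen with these values known; CYP4F11 lies at 2.54 and CYP4F3 at 2.20, and CYP1B1 and CYP1A1 lie below -2.

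Of the partners that pass electrons to P450 enzymes and the other enzymes fed by POR, all 15 on the list were tested. With resveratrol 6 were higher and 1 lower, 46.7% of the list beside 56.9% of all tested genes, with a median log2 fold change of 0.09. HMOX1, the heme oxygenase that takes its electrons from POR, rose by 0.85 (SE 0.15, adjusted p = 9.66e-06, edgeR). DHCR7 and SQLE, steps of cholesterol synthesis that also draw on POR, rose by 0.39 (SE 0.03, adjusted p = 8.91e-13) and 0.32 (SE 0.03, adjusted p = 8.13e-10). With the combination 6 were higher and 2 lower, 53.3% beside 59.8% of all genes. With EGCG 0 were called by edgeR, beside 1.76% of all genes, and 0 had an unadjusted p under 0.05.

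The substrates of the CYP4F enzymes come from several lipid pathways. Among 16 genes of eicosanoids and leukotrienes, 10 were tested, and 6 were higher and 1 lower with resveratrol, 70% of those tested beside 56.9% of all genes, with a median log2 fold change of 0.33. EPHX1 and EPHX2, which hydrolyse epoxides including those of arachidonic acid, rose by 1.23 (SE 0.05, adjusted p = 2.55e-20, edgeR) and 0.90 (SE 0.16, adjusted p = 8.24e-06). PTGR1, which inactivates leukotriene B4 by another route than CYP4F3, rose by 0.76 (SE 0.05, adjusted p = 1.36e-16), and LTA4H, which makes leukotriene B4, by 0.23 (SE 0.03, adjusted p = 8.09e-08). ALOX5, which starts leukotriene synthesis, was nearly absent with a mean of 0.1 normalized counts. With the combination 5 of the 10 were higher and 0 lower, beside 59.8% of all genes called.

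Acylceramide synthesis and the lipids of the skin barrier, the pathway of CYP4F22, were measured through 14 of 16 listed genes. With resveratrol 8 were higher and 5 lower, which is 92.9% of those tested beside 56.9% of all genes. The list moved in both directions, and its median log2 fold change was 0.23. NIPAL4 and ELOVL4, which makes very long fatty acids, rose by 0.70 (SE 0.07, adjusted p = 4.18e-11, edgeR) and 0.57 (SE 0.09, adjusted p = 1.88e-06). SDR9C7 fell by 0.80 (SE 0.19, adjusted p = 0.000707). UGCG, which makes glucosylceramide, fell by 0.38 (SE 0.06, adjusted p = 5.84e-06) and ELOVL1 by 0.29 (SE 0.04, adjusted p = 8.85e-09). With the combination 7 were higher and 5 lower, 85.7% of those tested beside 59.8% of all genes. With EGCG 1 was higher, 7.14% beside 1.76%.

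The dehydrogenases that carry an omega-hydroxylated fatty acid on to a dicarboxylic acid were 9 genes, of which 8 were tested. With resveratrol 2 were higher and 2 lower, 50% of those tested beside 56.9% of all genes, with a median log2 fold change of -0.06. ALDH3B1 rose by 0.51 (SE 0.09, adjusted p = 4.45e-06, edgeR) and ALDH3A2 by 0.16 (SE 0.03, adjusted p = 6.49e-05). ALDH1A1 fell by 0.45 (SE 0.12, adjusted p = 0.00269) and ADH5 by 0.17 (SE 0.04, adjusted p = 0.00124). With the combination 1 was higher and 3 were lower, 50% of those tested beside 59.8% of all genes.

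Vitamin K is a substrate of CYP4F2 and CYP4F11, and all 6 listed genes of its cycle were tested. With resveratrol and with the combination 3 were higher and 1 lower, 66.7% of the list beside 56.9% and 59.8% of all genes. The quinone reductases NQO1 and AIFM2 rose with resveratrol by 0.45 (SE 0.03, adjusted p = 8.19e-14, edgeR) and 0.43 (SE 0.05, adjusted p = 5.5e-09). GGCX, the carboxylase that uses vitamin K, rose by 0.26 (SE 0.04, adjusted p = 1.16e-07).

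Of 7 genes of the aryl hydrocarbon receptor axis, 3 of which stand on other lists here, 6 were tested, and 3 were higher and 3 lower with resveratrol, 100% of those tested beside 56.9% of all genes. AHR itself, the receptor, rose by 0.58 (SE 0.06, adjusted p = 7.53e-10, edgeR), while TIPARP, a target that restrains it, fell by 0.27 (SE 0.04, adjusted p = 9.15e-07). Among factors described as regulators of CYP4F genes, PPARA, the fatty acid receptor, rose by 0.55 (SE 0.07, adjusted p = 6.79e-08), and SREBF2, the regulator of sterol synthesis, by 0.37 (SE 0.03, adjusted p = 7.52e-12). RARA and RXRA, which are retinoid receptors, fell by 0.25 (SE 0.06, adjusted p = 0.000189) and 0.14 (SE 0.04, adjusted p = 0.00304). SREBF1, a regulator of fatty acid synthesis, had a log2 fold change of 0.06 and NFE2L2, the factor of the antioxidant response, of 0.00063, and neither passed the test. HNF4A, the liver factor, did not pass the filter, with a mean of 0.9 normalized counts.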

How the data were processed

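RNA of 24 libraries was sequenced from stranded TruSeq libraries. Per the submitters' processing notes, reads were handled with Trimmomatic 0.36, HISAT2 2.0.4 and SAMtools 1.3.1 on GRCh38. The authors deposited raw counts per gene, without normalization or pooling. The signal per gene that they deposited as normalized counts equalled raw counts over DESeq2 size factors in 24 of 24 libraries. The FPKM values deposited by the authors are these counts per gene length and served only for comparing levels between genes.

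The counts of all libraries entered 1 fit in edgeR 4.0.16 under R 4.3.3 (TMM, filterByExpr, quasi-likelihood test, Benjamini-Hochberg adjustment over 15476 genes). Totals ranged from 7034872 to 11735574 counts, and counting error is larger, relative to the level, for genes with few reads. Alternatives were DESeq2 1.42.0, other scalings, filters and thresholds, a term for the replicate sets, a replicate block and leaving out each library. The edgeR step was tested on simulated data. CPM values used a prior count of 2. Coding identity and windows came from GENCODE v44 transcripts, aligned with Biopython 1.88.

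Members, lists, alternatives and the naming rule were chosen with earlier results of these data known. By that rule the text names the members, the 3 tested genes most like each tested member, and per list at most the 3 called genes with the largest change and the 2 with the highest mean; ALOX5, HNF4A, RARA, RXRA, SREBF1, NFE2L2, COL1A1 and CYP4F26P, added after their values were seen, are exceptions. The results of 1 listed gene, and the counts of its list, are not reported here.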

Additional observations from a re-analysis of the deposited data

Results flagged for a closer look

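In groups of 6 libraries, a library is set apart here when its gap to the nearest other library as a share of the group's range exceeds Dixon's 95% critical value, and chance does this in about 1 of 20 groups. Of 32 groups (8 genes in 4 groups), 4 did so, all for CYP4F12. They were control replicate 3 at 1.85 normalized counts, EGCG replicate 1 at 0.841, resveratrol replicate 4 at 0.989 and combination replicate 5 at 1.13. Each was the single library of its group with any read of CYP4F12, 2 reads in the control and 1 in the others, so the gap is the step from 0 to 1 or 2 reads.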

How the results depend on the processing

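Of 832 recomputed fold changes of the 5 tested members, 600 came from leaving out a library. Of these, 0 moved by more than the spread between libraries. Such a fit keeps nearly all libraries and can hardly move that far, so this says little. Over all 832, 823 moved by less than the spread and 9 by more. Of the 9, 7 were of CYP4V2 within a set of replicates and 2 of POR with library size alone. No called value turned in direction. With EGCG 1 member, CYP2S1, was called in place of 0 under library size alone, with every gene of at least 1 count, or with the replicate sets as a term, and leaving out a library gave 0 to 1. With resveratrol 3 members in place of 5 were called with at least 10 counts in every library, which leaves only 3 members tested, and 3 within replicates 1 to 3; leaving out a library gave 4 to 5, and 4 throughout for the combination. For the combination against resveratrol it gave 0 to 1. The log2 ratio of summed CYP4F counts to control was 2.27 with resveratrol and 2.35 with the combination for the 5 members, 2.21 to 2.35 and 2.28 to 2.42 with a library left out, and 1.55 and 1.63 over all 24 CYP4F genes. With EGCG leaving out a library gave 0.06 to 0.20. With a replicate block the counts were 0, 5, 4, 0 and 0 in the 5 comparisons, as without it. After each gene's group mean was removed from its log2 CPM, same-numbered libraries of different groups correlated at -0.01 to 0.13. Of the 24 libraries, 14 correlated best, among the libraries of the other groups, with a library of their own number. The rate for unrelated numbers was not computed, and the split between replicates 1 to 3 and 4 to 6 stays in these values. The labels name no pairs and the main fit took none, and a structure shared by number was not tested. Depth limits CYP4F2, CYP4F12 and CYP4F22, which had at most 6 reads in a library.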
